A study of Bos taurus with 2 samples.

Results

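The MEF2 genes encode MADS-box transcription factors that bind A/T-rich DNA in the control regions of muscle genes. In the myogenic lineage they act together with the bHLH factors MYOD1 and MYOG, and class IIa histone deacetylases bind them and hold their target genes silent. Calcium-dependent CaM kinases and the p38 and ERK5 kinase pathways relieve that repression or raise MEF2 activity, so a MEF2 transcript level is not a measure of MEF2 activity. MEF2A, MEF2C and MEF2D were taken here by name from the deposited list of 21867 genes, and all 3 members were present as MEF2A (ENSBTAG00000010649), MEF2C (ENSBTAG00000020701) and MEF2D (ENSBTAG00000046545).

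The data were 2 single-cell RNA sequencing libraries, called replicates 1 and 2, made from the same culture of satellite cells of a single 2-week-old male Holstein calf. Satellite cells are the stem cells of skeletal muscle, and these were kept for a week in DMEM with 10% FBS, a medium that supports growth, with no treatment. Both libraries were 3′ libraries in which each captured RNA molecule carries a unique molecular identifier (UMI), so that 1 UMI stands for 1 molecule. Replicate 1 held 9939 cells and 145631299 UMIs, replicate 2 held 9157 cells and 137818568 UMIs, and 27 cell barcodes occurred in both.

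The 19096 cells fell into the 15 clusters of the study, which was able to name 9 of them. Clusters 4, 5 and 8 were called satellite cells, 1 and 2 myoblasts, 3 and 12 myocytes, and 7 and 9 fibro-adipogenic progenitors, while 6, 10, 11, 13, 14 and 15 had no identity. Marker genes were checked against these names. The summed level of the myocyte markers MYOG, MYH3 and MYMK was 37.3 ± 1.81 UMIs per 10000 UMIs in cluster 12 and 8.29 ± 0.177 in cluster 3 (SD, n = 2 libraries), against 0.179 ± 0.0116 in cluster 8. The satellite cell markers PAX7 and PAX3 together held at most 89 UMIs in any cluster. The fibro-adipogenic markers PDGFRA, PPARG and ZNF423 stood at 1.99 ± 0.077 in cluster 9 and 1.67 ± 0.375 in cluster 7. The name of cluster 7 went only partly with its markers, since its myocyte markers stood at 7.09 ± 0.512, while those of cluster 9 stood at 0.399 ± 0.124. The sum in cluster 7 was close to cluster 3, but its parts were not. MYH3 stood at 4.74 ± 0.501 in cluster 7 and 1.27 ± 0.0279 in cluster 3, and MYOG at 1.75 ± 0.0769 and 6.68 ± 0.107. Cluster 7 is therefore called by its number. The median cell held 12929 to 23011 UMIs in clusters 1 to 6, 8, 9, 11 and 12, 5398.5 in cluster 10, and only 647 to 2513.5 in clusters 7, 13, 14 and 15. Because the libraries came from the same cells of 1 animal, their spread measures library preparation and sequencing, not animals or cultures.

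The members differed widely in how many molecules stood behind them. MEF2A was detected with 31933 UMIs in 12752 cells, or 66.8% of all cells. MEF2D was detected with 4879 UMIs in 3858 cells, or 20.2%. MEF2C was detected with 705 UMIs in 418 cells, or 2.19%. Levels below are UMIs per 10000 UMIs of a cluster in 1 library, and they are compared between clusters rather than between genes. The reads mark 3′ ends, so the alternatively spliced forms of these genes could not be told apart.

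MEF2A was measurable in every cluster, with means of the libraries from 0.653 in cluster 11 to 3.3 in cluster 12. Its level was 3.36 in replicate 1 and 3.24 in replicate 2 of cluster 12, the highest of the 15 clusters. Next in order stood cluster 7, with 2.72 and 2.51, and cluster 3, with 1.82 and 1.78. The libraries of these 3 clusters did not overlap with each other. These levels are plain shares of UMIs, and the order of clusters 7 and 3 depended on the scaling used in the tests below. Among the clusters without myocyte identity and with deep cells, cluster 1 had 1.1 and 1.14, cluster 8 had 1.01 and 0.918, and clusters 2, 4, 5 and 6 lay between 0.805 and 0.933. Clusters 9 and 11 were lowest, with 0.675 and 0.647 in cluster 9 and 0.68 and 0.627 in cluster 11, and these could not be ordered since their libraries overlapped. Cluster 10, with cells of intermediate depth, stood at 1.53 in both libraries. Of the shallow clusters, 13 stood at 1.73 and 1.56, 14 at 0.792 and 0.724, and 15, with 26 UMIs in all, at 1.57 and 0.887.

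MEF2D was highest in cluster 12, at 0.475 and 0.484, and stood at 0.333 and 0.356 in cluster 3. Cluster 10 had 0.257 and 0.252, and clusters 7, 13 and 15, with 6 to 51 UMIs each, lay between 0.161 and 0.42. Clusters 1, 2 and 6 formed a middle tier between 0.159 and 0.187. Clusters 4, 5, 8 and 9 formed a lower tier between 0.0788 and 0.11. Cluster 11 was lowest, at 0.0383 and 0.0695, and its libraries did not reach those of the lower tier. Within the tiers most neighbours overlapped, so that clusters 2 and 6, and clusters 9, 4 and 5, had no order beyond their spread.

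MEF2C was concentrated in a single small cluster. Cluster 12 held 491 of its 705 UMIs, or 69.6%, in 3.28% of the cells, whereas it held 12.8% of all MEF2A UMIs and 12.2% of all MEF2D UMIs. The MEF2C level there was 0.394 in replicate 1 and 0.398 in replicate 2. Cluster 9, the fibro-adipogenic cluster with deep cells, came next by count with 53 and 43 UMIs, a level of 0.0373 and 0.0353. Cluster 3 had 23 and 18 UMIs, a level of 0.0122 and 0.011. Each of the other 12 clusters held 13 UMIs or fewer over both libraries. Among them, clusters 7 and 10 stood at 0.0446 and 0.0656 and at 0.0135 and 0.0196, from 12 and 13 UMIs, and clusters 8, 14 and 15 had no UMI in replicate 2. Clusters 1, 2, 4, 5, 6, 8 and 11 all lay at or below 0.00492 and could not be ordered.

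**Figure D1:**
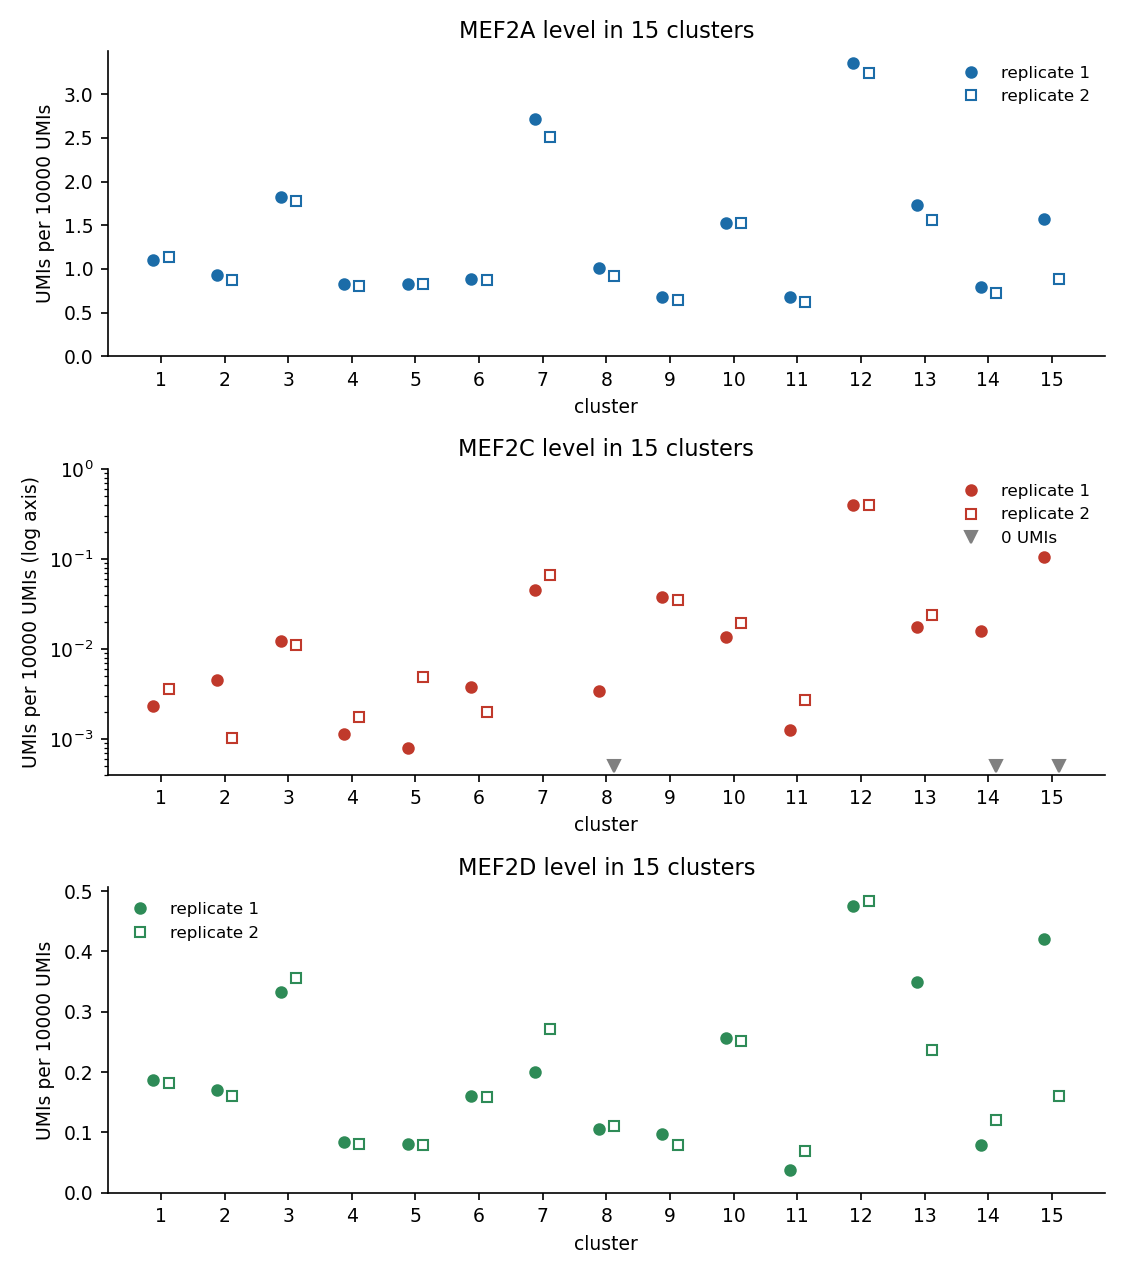
Level of MEF2A, MEF2C and MEF2D in the 15 clusters, in UMIs per 10000 UMIs, with replicate 1 as filled circles and replicate 2 as open squares. The MEF2C axis is logarithmic and grey triangles mark libraries with 0 UMIs. Cluster 12 is highest for all 3 genes, and cluster 7 is second for MEF2A on these unscaled levels. MEF2C stands near 0.396 in cluster 12 against 0.0363 in cluster 9 and 0.0116 in cluster 3.

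The makeup of the 3 members differed between clusters. MEF2B was not taken as a member and is left out of these shares. It held 289 UMIs in 279 cells, with 40 in cluster 1 against 10 of MEF2C, and 10 in cluster 12 against 491 of MEF2C. In cluster 12, MEF2C supplied 9.47% of the summed UMIs of the 3 members (exact 95% binomial interval 8.69 to 10.3; 9.3% and 9.65% in the libraries). It supplied 4.62% in cluster 9 (3.76 to 5.62) and 0.537% in cluster 3 (0.386 to 0.728). MEF2D supplied 15.9% in cluster 3 and 14.1% to 15.5% in clusters 1, 2 and 6, but 8.81% to 10.0% in clusters 4, 5 and 8 and 7.51% in cluster 11. In cluster 12 the MEF2D share was 11.5% (10.6 to 12.4), below that of cluster 3 (15.1 to 16.8), although its level was higher there. MEF2A supplied the rest, from 79.0% in cluster 12 to 92.2% in cluster 11 among the clusters with deep cells. These intervals cover counting error only.

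The question of where along differentiation the members change was addressed by comparing neighbouring clusters of the study's trajectory. UMIs were summed per library and cluster and compared as 2 sums against 2 in edgeR by its quasi-likelihood test. Genes with too few counts were filtered out, p-values were adjusted over the remaining genes by the Benjamini-Hochberg method, and an adjusted p below 0.05 is what is meant by a call. The clusters had been drawn on these same counts, so the calls describe the clusters and are no independent evidence that they differ, and comparisons that share a cluster share its sums. MEF2A and MEF2D passed the filter in each of the 6 comparisons. MEF2C passed it only in cluster 3 against 1 and cluster 12 against 3.

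From cluster 8, satellite cells, to cluster 1, myoblasts, MEF2D rose by a log2 fold change of 0.80 (SE 0.106; 0.85 and 0.73 in the libraries), with an adjusted p of 7.46e-04 by edgeR's quasi-likelihood test. MEF2A rose less, by 0.24 (SE 0.0633; 0.16 and 0.33), with an adjusted p of 0.0189, and this call was lost with DESeq2 (adjusted p = 0.0531). In this comparison 34.1% of the 11194 genes tested were called. MEF2C held 10 UMIs in cluster 1 and 3 in cluster 8, too few for a test.

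From cluster 1 to cluster 3, early myocytes with MYOG, all 3 members rose. MEF2D rose by 0.94 (SE 0.0683), from levels of 0.187 and 0.182 to 0.333 and 0.356. MEF2A rose by 0.73 (SE 0.0481), from 1.1 and 1.14 to 1.82 and 1.78. The edgeR adjusted p-values were 9.32e-05 and 6.58e-05. MEF2C rose by 1.98 (SE 0.412; 2.29 and 1.55 in the libraries), from 10 to 41 UMIs, with an adjusted p of 0.00799 in edgeR and 0.0837 in DESeq2, so this rise rested on few molecules and on the tool. With 4 and 6 UMIs in the libraries of cluster 1, MEF2C passed the filter only through cluster 3. The test could therefore hardly have shown a fall. The share of all genes called was 40.2% of 11362.

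From cluster 3 to cluster 12, all 3 rose again. MEF2C rose by 5.18 (SE 0.133; 5.10 and 5.23 in the libraries), from 41 UMIs in 2034 cells to 491 UMIs in 627 cells, with an edgeR adjusted p of 4.05e-07. MEF2A rose by 0.97 (SE 0.0545; 1.00 and 0.95) and MEF2D by 0.57 (SE 0.0759; 0.63 and 0.53), with edgeR adjusted p-values of 1.01e-05 and 8.77e-04. Here 33.8% of the 10811 genes tested were called. No library of cluster 3 reached the level of a library of cluster 12 for any member.

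Along the other path, from cluster 8 through 5 and 4 to 2, MEF2A moved less. MEF2D was called higher only in the last step. From cluster 8 to 5 both testable members were lower, MEF2A by -0.22 (SE 0.0673) and MEF2D by -0.43 (SE 0.134), with edgeR adjusted p-values of 0.0434 and 0.0467, close to the threshold. Neither call was made with DESeq2 (adjusted p = 0.196 and 0.41) or without the filter on low counts (0.0693 and 0.0621). From cluster 5 to 4 the log2 fold changes were -0.04 (SE 0.0524) for MEF2A and 0.02 (SE 0.122) for MEF2D, and edgeR called neither (unadjusted p = 0.433 and 0.898), nor did DESeq2. From cluster 4 to cluster 2, which the study called myoblasts, MEF2D rose by 0.99 (SE 0.092; 0.98 and 0.99 in the libraries), with an edgeR adjusted p of 5.23e-04. MEF2A differed by 0.13 (SE 0.0531; 0.14 and 0.11) with an edgeR adjusted p of 0.121, which became 0.00635 with the library as a block. The shares of all genes called in these 3 comparisons were 28.5%, 16.4% and 30.2%.

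**Figure D2:**
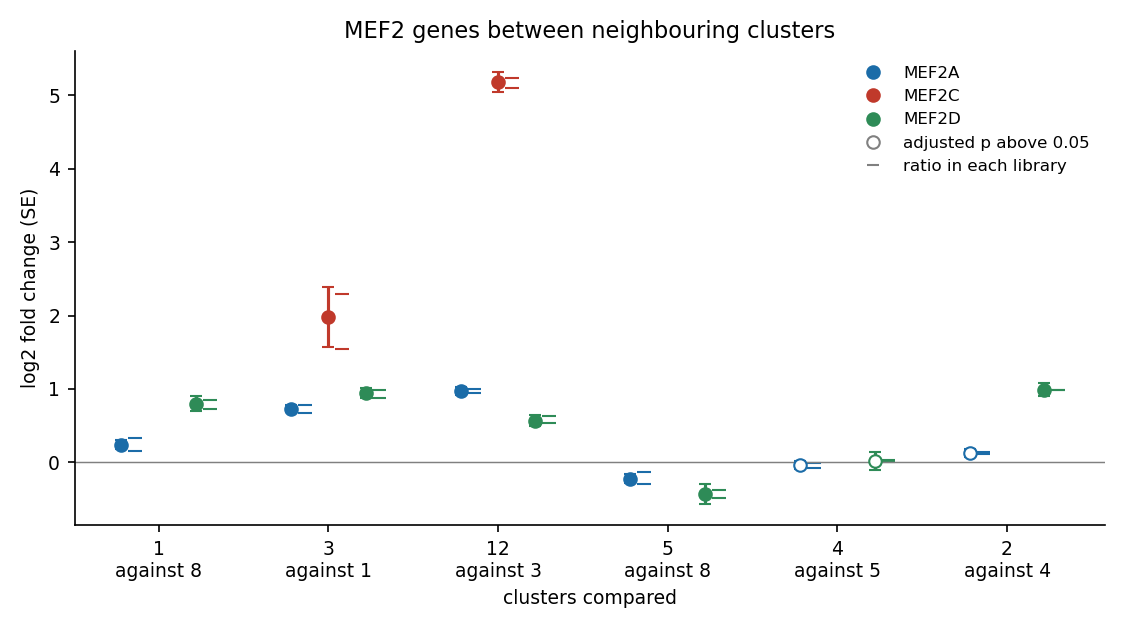
Log2 fold change of each MEF2 gene between neighbouring clusters with its standard error, filled where edgeR's adjusted p was under 0.05; short dashes give the ratio in each library. MEF2C was tested in 2 of the 6 comparisons and rose by 1.98 and 5.18, while MEF2D shows similar rises of 0.80, 0.94 and 0.99 in cluster 1 against 8, 3 against 1 and 2 against 4.

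The levels pointed to a further pair that lies on neither path, clusters 6 and 11, which have no identity in the study. This comparison was added after the levels were seen, so its p-values only describe a difference for which the pair was picked. MEF2D was higher in cluster 6 by 1.65 (SE 0.216), with 0.161 and 0.159 against 0.0383 and 0.0695, and the libraries differed in size (2.13 and 1.24). MEF2A was higher by 0.50 (SE 0.0627; 0.46 and 0.53). The edgeR adjusted p-values were 0.00233 and 0.00196, with 16.5% of all genes called. The myoblast markers MYOD1, MYF5 and DES summed to 10.6 ± 0.64 in cluster 6 and 3.26 ± 0.0645 in cluster 11, and their part in this difference was not tested.

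Compared with all other cells, 31 of the 45 pairs of member and cluster were called by edgeR. All 3 members were higher in cluster 12, where 54.3% of all genes were called. In cluster 3, with 49.9% called, MEF2A and MEF2D were higher but MEF2C was lower, in a comparison where the other cells include the 491 UMIs of cluster 12. All 3 were lower in clusters 4, 5 and 11, in which 31.6%, 24.1% and 26.5% of all genes were called. In clusters 1, 2, 4, 5, 6, 8 and 11 MEF2C held 3 to 11 UMIs and passed the filter only through the other cells. Those include the 491 UMIs of cluster 12, so the test could hardly have shown MEF2C higher. Its calls in these clusters, counted among the 31, therefore say little. MEF2A and MEF2C were lower in clusters 2 and 6, with 31.8% and 20.1% of genes called. MEF2D was called in neither, but in cluster 6 it went from -0.07 to -0.23 and was called without possible doublets (edgeR adjusted p = 0.0488). In cluster 1, with 33.4% called, MEF2C was lower and MEF2D was higher by 0.19 (SE 0.0534, edgeR adjusted p = 0.0425), a call that 4 of the alternatives lost. In cluster 8, with 46% called, MEF2C and MEF2D were lower, and MEF2A, at -0.18 (SE 0.0617), had an edgeR adjusted p of 0.057, which became 5.95e-05 with the library as a block and was under the threshold in 6 of the alternatives. In cluster 10, with 38.6% called, MEF2A was higher by 0.34 (SE 0.0572) and MEF2D by 0.47 (SE 0.0839). In cluster 9, with 53% called, MEF2A and MEF2D were lower, and MEF2C was higher by 0.58 (SE 0.148), with an adjusted p of 0.017 in edgeR and 0.0659 in DESeq2.

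Calls in the clusters with shallow cells depended more on the settings. In cluster 7, where 44.7% of genes were called and the median of all genes was -0.12, MEF2A was higher by 0.58 (SE 0.0882; 0.58 and 0.59 in the libraries) with an edgeR adjusted p of 0.00287. The part of the myocyte markers of cluster 7 in this difference was not tested. After TMM scaling the difference was smaller than that of MEF2A in cluster 3, 0.94 (SE 0.0461), although the unscaled level was higher in cluster 7. MEF2D in cluster 7 had -0.16 (SE 0.174) after TMM scaling, and its sign turned to 0.49 without that scaling, so no direction is given. MEF2C there, from 12 UMIs, had 0.55 (SE 0.326) and was not called, but reached 1.2 and a call without that scaling and 1.41 and a call without cells under 2000 UMIs (edgeR adjusted p = 0.0272 and 0.0443). In cluster 13, with 17.3% called, MEF2A was higher by 0.45 (SE 0.0935), and in cluster 14, with 7.79% called, it was lower by -0.48 (SE 0.102). The first call was lost without cells under 2000 UMIs (edgeR adjusted p = 0.0661) and the second with reassigned cells (0.0526). MEF2D in cluster 13, at 0.70 (SE 0.217), had an edgeR adjusted p of 0.0751 and was called in 3 of the alternatives. In cluster 15, with 0.273% of genes called, edgeR called no member; none of the 3 had an unadjusted p under 0.05, and DESeq2 called none.

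Single cells gave a view of the members that does not depend on sums. To compare cells at the same depth, each cell was thinned at random to 5000 UMIs and shallower cells were left out, which kept 613 of the 627 cells of cluster 12, 2031 of cluster 3, 2461 of cluster 1 and 1080 of cluster 9. At that depth 15.5% of the cells of cluster 12 had a UMI of MEF2C (95 of 613; exact 95% interval 12.7 to 18.6). Cluster 9 followed with 2.59% (1.73 to 3.73). Cluster 10 had 0.896% (5 of 558 cells, 0.292 to 2.08) and cluster 3 had 0.443% (0.203 to 0.84), with overlapping intervals. In clusters 1, 4, 5, 6 and 8 it was 0.0635% to 0.244%, and in clusters 2 and 11 it was 0 of 2109 and 0 of 844 cells, counts that allow shares of up to 0.142% and 0.355%. Cluster 7 kept only 12 cells at this depth, of which 2 had MEF2C. At 2000 UMIs it had MEF2C in 8 of 308 cells (2.6%, 1.13 to 5.05), above the 0.833% of cluster 9 (0.382 to 1.58), with overlapping intervals. Without thinning, 35.2% of the cells of cluster 12 had a MEF2C UMI. Cluster 9, whose median cell was deeper (23011 UMIs against 19113), had 8.43%, and clusters 3 and 1 had 1.67% and 0.401%.

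MEF2A at the same depth was present in 79.0% of the cells of cluster 12 (75.5 to 82.1), 56.0% of cluster 3, 53.8% of cluster 10 and 40.8% of cluster 1. Cluster 9 and cluster 11 were lowest, with 26.7% and 26.9%. MEF2D was present in 20.2% of the cells of cluster 12 (17.1 to 23.6), 16.2% of cluster 3 (14.6 to 17.9) and 12.4% of cluster 10 (9.75 to 15.4). The interval of cluster 3 overlapped with those of clusters 12 and 10. It was present in 7.24% to 8.49% of the cells of clusters 1, 2 and 6 and in 2.96% to 5.92% of clusters 4, 5, 8, 9 and 11. A share of cells without a UMI at this depth is not a share of cells without the transcript.

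**Figure D3:**
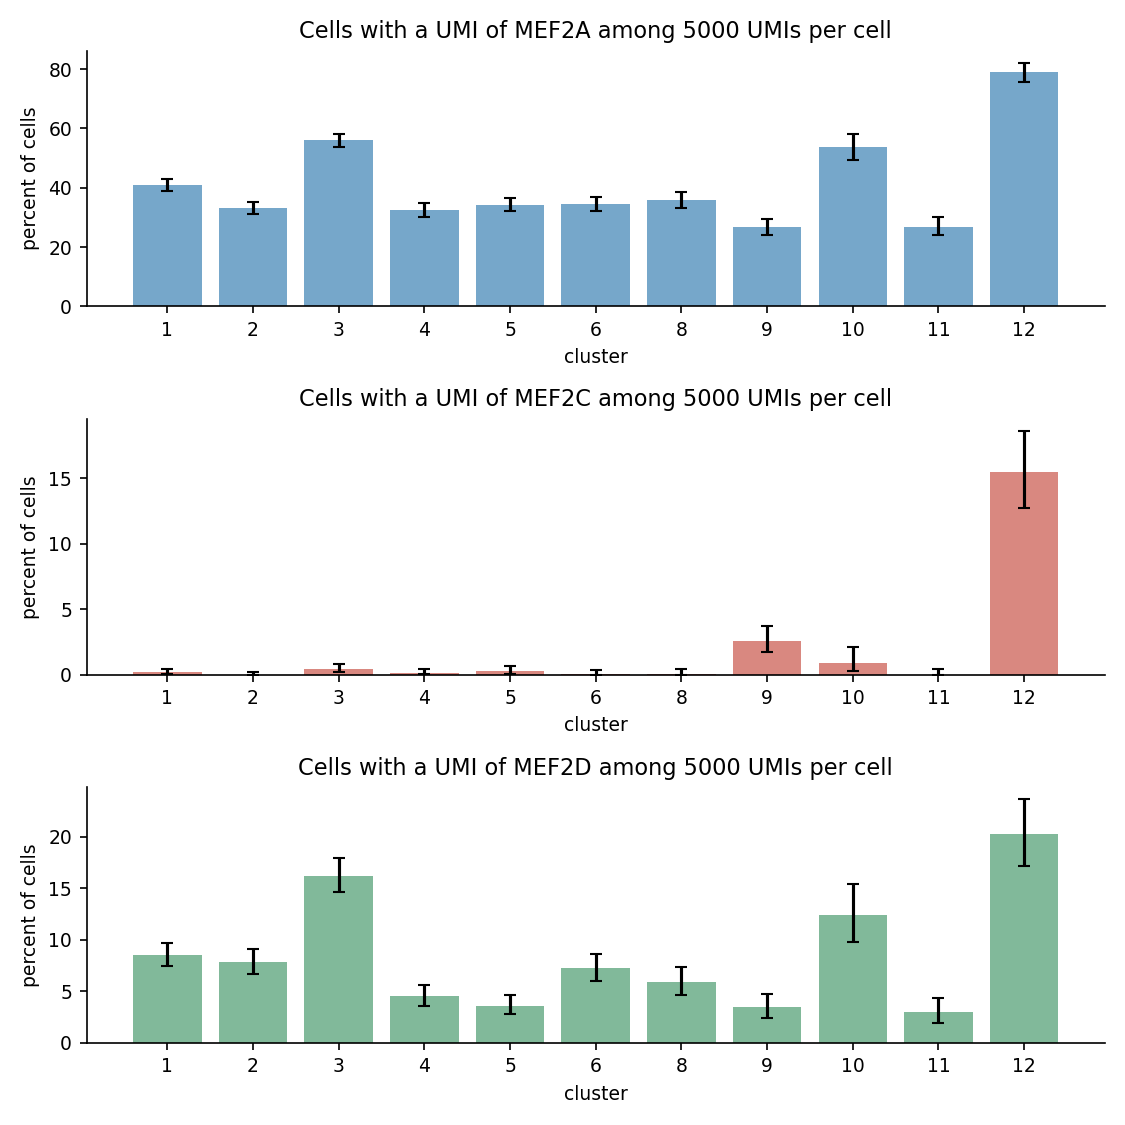
Percent of cells with at least 1 UMI of each MEF2 gene after thinning to 5000 UMIs per cell, in the 11 clusters with 500 or more such cells; bars carry exact 95% binomial intervals. MEF2A is seen in all clusters, from 26.7% to 79.0% of cells, whereas MEF2C reaches 15.5% in cluster 12 and stays at or below 2.59% elsewhere.

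Within cluster 12 the MEF2C UMIs were spread unevenly over cells. Of its 627 cells, 406 had no UMI, 113 had 1, 45 had 2 and 63 had 3 or more. These 63 cells held 288 of the 491 UMIs, or 58.7%, and the richest cell held 12. No cell of cluster 9 had more than 2, but its 1080 cells held only 96 MEF2C UMIs, too few to compare the spread. MEF2A, with many more UMIs, had 5 or more in 400 of the 627 cells of cluster 12 (63.8%), 471 of the 2034 cells of cluster 3 (23.2%) and 62 of the 1080 cells of cluster 9 (5.74%).

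The other members were counted in cells with and without MEF2C. At 5000 UMIs, 77 of the 95 cells of cluster 12 with MEF2C (81.1%) also had MEF2A, against 407 of the 518 without MEF2C (78.6%). MEF2D was found in 15 of the 95 (15.8%) and in 109 of the 518 (21.0%), and its share was lower in the cells with MEF2C in both libraries (12.5% against 19.9%, and 18.2% against 22.2%). The shares with MEF2C rest on 5 and 10 cells. Over all UMIs of the same cells MEF2D was not lower in both libraries, with levels of 0.578 and 0.479 against 0.455 and 0.487. In cluster 9, MEF2D was found in 0 of 28 cells with MEF2C and in 37 of 1052 without (3.52%). The count of 0 allows up to 3 of the 28 cells, a larger share than 3.52%, so no difference is read from it. In cluster 12, 13 cells had all 3 members and 87 cells, or 14.2%, had none. In clusters 1 and 3 no cell had all 3, and 53.9% and 37.0% had none. With MEF2C in only 4 and 9 cells of clusters 1 and 3, a cell with all 3 could hardly have been seen. No test was made of these shares, because cells of 1 library are not replicates.

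MYOG, the bHLH factor that marks the entry into terminal differentiation, was used to order cells within a cluster. Cells were grouped by their MYOG UMIs among 5000, and the level of each member was taken over all UMIs of the group, as a description with no test. In cluster 3, MEF2A stood at 1.41 and 1.4 in the 737 cells without MYOG, and at 2.56 and 2.58 in the 468 cells with 6 or more. MEF2D stood at 0.263 and 0.284 in the former and at 0.436 and 0.433 in the latter. MEF2C stood at 0.00152 and 0.00166 in the former, from 2 UMIs, and at 0.0262 and 0.0209 in the latter, from 19 UMIs. Thus the level of all 3 genes within cluster 3 was higher in cells richer in MYOG, in both libraries, with MEF2C resting on few molecules.

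For MEF2A and MEF2D the same order appeared in cluster 1, where few cells had MYOG. MEF2A there went from 1.06 and 1.09 in 2008 cells without MYOG to 1.81 and 1.7 in 40 cells with 6 or more. MEF2D went from 0.18 and 0.169 to 0.239 and 0.532, values that rest on 5 and 15 UMIs. MEF2C differed between clusters within the same class of MYOG. Cells with 6 or more MYOG UMIs had 0.0262 and 0.0209 in cluster 3 (19 UMIs in 468 cells) and 0.416 and 0.43 in cluster 12 (384 UMIs in 465 cells). Within cluster 12, MEF2C was lower in the 102 cells with 3 to 5 MYOG UMIs, at 0.317 and 0.366. In the class of 6 or more, MEF2D stood at 0.519 and 0.518 in cluster 12 and at 0.436 and 0.433 in cluster 3. MEF2A stood at 3.61 and 3.44 against 2.56 and 2.58. Both libraries of cluster 12 lay above both of cluster 3 for each of these genes. The open class of 6 or more can hold more MYOG in cluster 12 than in cluster 3, which was not tested.

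**Figure D4:**
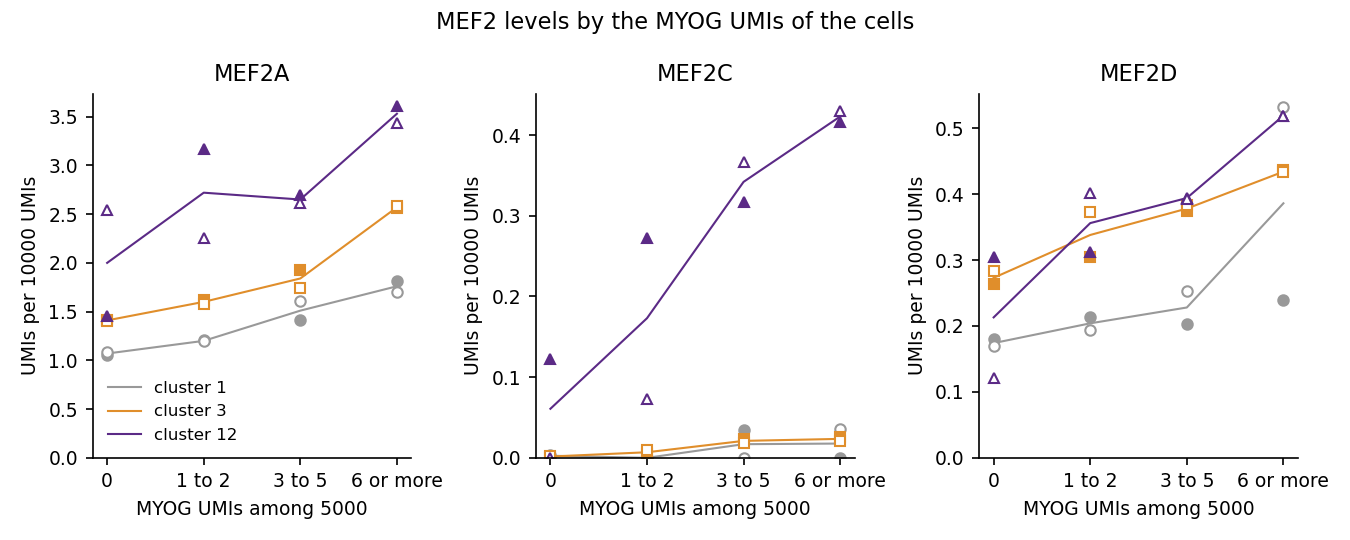
Level of each MEF2 gene, in UMIs per 10000 UMIs, in cells of clusters 1, 3 and 12 grouped by MYOG UMIs among 5000; filled symbols are replicate 1, open symbols replicate 2 and lines join their means. In clusters 1 and 3 MEF2A is highest in cells with 6 or more MYOG UMIs, and MEF2C in cells with 6 or more MYOG UMIs is 0.423 in cluster 12 and 0.0235 in cluster 3.

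The genes around MEF2 were read from 5 lists, of which 66 of 68 genes were in the reference. From cluster 3 to cluster 12, 13 of the 17 known MEF2 targets tested were higher and 1 was lower, with a median log2 fold change of 1.62 against -0.02 over all genes. In that comparison 18.2% of all genes were called higher and 15.6% lower. Many of these targets are also muscle structure genes that mark the myocyte clusters, and no binding was measured. CKM, the muscle creatine kinase, rose by 5.83 (SE 0.134), from 0.00951 and 0.0103 to 0.553 and 0.514, with an edgeR adjusted p of 2.37e-07. MYOM2, a protein of the sarcomeric M-band, rose by 4.99 (SE 0.151), from 0.0174 and 0.0152 to 0.527 and 0.451. MYL2, a myosin light chain, rose by 5.58 (SE 0.552), and its level in cluster 12 was 0.938 in replicate 1 and 0.336 in replicate 2. JUN, an immediate early factor and a target outside muscle structure, fell by 0.57 on the log2 scale (SE 0.0481; -0.57 in both libraries).

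Among the listed repressors, 0 of 4 tested were higher and 1 was lower, with 15.6% of all genes lower. This was HDAC7, a class IIa deacetylase, which fell by 0.51 (SE 0.0979; -0.40 and -0.60 in the libraries) with an edgeR adjusted p of 0.0055. HDAC4 and HDAC5 differed by 0.07 (SE 0.221) and 0.12 (SE 0.0877). HDAC5 had been lower already from cluster 1 to 3, by -0.72 (SE 0.0611), as had HDAC7, by -0.56 (SE 0.0679), which made 2 of 4 repressors lower in a comparison where 19.1% of all genes were.

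Of the partners and coactivators, 3 of 12 were higher and 2 lower, shares not far from the 18.2% and 15.6% of all genes. MYOG rose by 1.57 (SE 0.0476), MYF6 by 0.92 (SE 0.143) and the E-protein TCF12 by 0.56 (SE 0.0532). MYOD1 fell by 0.58 (SE 0.0613) and MYF5 by 0.51 (SE 0.123). The coactivators EP300 and CREBBP differed by 0.02 and -0.01, with SEs of 0.0791 and 0.0779.

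Of the upstream kinases and phosphatases, 7 of 20 were higher and 2 lower, against 18.2% higher and 15.6% lower among all genes. CAMK2B, a CaM kinase subunit, rose by 2.05 (SE 0.224), from 0.0227 and 0.0183 to 0.0797 and 0.0799, and CAMK1 rose by 0.76 (SE 0.128). CAMK2A passed the test too, with 32 UMIs in cluster 12 and 3 in cluster 3, too few for a fold change to be given. It passed the filter only through cluster 12, so the test could hardly have shown a fall. MAP2K6 fell by 1.33 (SE 0.383) and MAP2K3 by 0.32 (SE 0.0857), both activators of p38, and neither call was made with DESeq2 (adjusted p = 0.244 and 0.11). MAPK14, the p38 alpha kinase, had 0.30 (SE 0.0988) with an edgeR adjusted p of 0.0526.

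Splicing regulators of muscle exons were listed because MEF2 transcripts carry such exons. Of these 4 of 8 were higher and 1 lower, against 18.2% higher and 15.6% lower among all genes. RBFOX1 held 16 UMIs in cluster 12 and 3 in cluster 3, so it passed the filter only through cluster 12 and could hardly have shown a fall. RBM24 rose by 0.36 (SE 0.051) and CELF1 by 0.44 (SE 0.115), the latter not called with DESeq2 (adjusted p = 0.149). PTBP1, a repressor of muscle exons, fell by 0.68 (SE 0.097; -0.56 and -0.81 in the libraries), with an edgeR adjusted p of 0.00125.

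In the other comparisons the same lists moved to different degrees. From cluster 1 to 3, 14 of 17 targets were higher and 2 lower (median 1.5), where 21.1% of all genes were called higher and 19.1% lower. From cluster 8 to 1, 8 of 13 targets were higher and 0 lower (median 2.12), where 17.2% of all genes were called higher and 16.9% lower. From cluster 4 to 2, 9 of 15 were higher and 1 lower (median 1.31), against 14.5% and 15.7% of all genes. From cluster 8 to 5, 3 of 10 targets were higher and 1 lower (median 0.27), against 16.3% and 12.2%. Between clusters 5 and 4, edgeR called none of 11 (median 0.03), against 9.16% higher and 7.28% lower among all genes. Some targets counted as higher passed the filter only through the cluster where they were higher. The test could hardly have shown them lower. Among them were CKM, XIRP2 and MYOM2 in cluster 3 against 1, at 0.00116 to 0.00421 in cluster 1. Others were SMYD1, MYOM1 and MYOM2 in cluster 2 against 4, and SMYD1 in cluster 1 against 8.

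In cluster 9, MEF2C was higher while the other members and many muscle genes were lower. Cluster 9 was compared with the pooled cells of the 7 other deep clusters without a myocyte name (1, 2, 4, 5, 6, 8 and 11). As the comparison was added after the levels were seen, the p-values of the members only describe differences already seen. MEF2C was higher by 3.87 (SE 0.239; 3.81 and 3.93 in the libraries), with 0.0373 and 0.0353 against 0.00259 and 0.00228. MEF2A was lower by -0.46 (SE 0.0504; -0.46 in both libraries) and MEF2D by -0.55 (SE 0.105; -0.44 and -0.69). The edgeR adjusted p-values were 7.36e-05, 6.73e-04 and 0.00613, and 52% of the 12869 genes tested were called.

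Of the listed targets 0 of 18 were higher and 10 were lower, with a median of -1.03 against -0.03 over all genes. Of the partners 0 of 12 were higher and 10 lower. Among all genes 25.3% were called higher and 26.7% lower. MYOD1 differed by -2.84 and DES by -1.68. Of the repressors, HDAC5 and HDAC7 were higher, by 0.64 and 0.78, and HDAC4 was lower by -0.86.

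The ratio of MEF2C to muscle transcripts differed between clusters. Per 100 UMIs of the embryonic myosin gene MYH3, cluster 9 had 26.0 and 33.3 UMIs of MEF2C in the 2 libraries, against 2.65 and 2.46 in cluster 12 and 0.972 and 0.85 in cluster 3. Against MYOG the ratios were 11.5 and 17.9 in cluster 9, 2.18 and 2.08 in cluster 12 and 0.184 and 0.162 in cluster 3. MEF2C is also known from endothelial cells, so the markers of other cell types were counted in the 91 cells of cluster 9 with a MEF2C UMI. Of the endothelial markers, CDH5 had 0 UMIs, and PECAM1 and KDR had 1 each and TEK had 2. The other 989 cells of cluster 9 held 4 and 2 UMIs of CDH5 in the libraries, 3 and 5 of KDR and 9 and 7 of TEK. Counts this low in 91 cells could not show a shortage of these markers. PDGFRA was seen in 89.8% and 92.9% of these cells and in 91.2% and 92.5% of the other cells of cluster 9. The pericyte marker NOTCH3 was seen in 30.6% and 33.3% of them and in 32.4% and 30.5% of the others, and RGS5 and MCAM together had 1 UMI. The glial markers FOXD3 and SOX10 had no UMI in any cell. Of the immune markers, PTPRC had no UMI in cluster 9, but only 1 in all cells. CD68 was seen in 6.12% and 2.38% of the cells with MEF2C and in 5.21% and 5.75% of the others. CSF1R had no UMI in the cells with MEF2C and 4 and 5 in the others. ACTA2, which smooth muscle and activated fibroblasts share, stood at 5.78 and 4.97 in the cells with MEF2C and at 6.08 and 6.63 in the others, and MYH11 had no UMI in the cells with MEF2C. All 4 endothelial markers together stood at 0.0246 in cluster 9 (65 UMIs), above every other cluster with deep cells. Those ranged from 0.0016 in cluster 12 to 0.00979 in cluster 4. The shallow clusters 7 and 14 stood at 0.0276 and 0.0226, from 6 and 3 UMIs. Of the 45 PECAM1 UMIs in all cells, 18 and 13 lay in the cells of cluster 9 without MEF2C in the libraries. The part of endothelial RNA in cluster 9 was not tested. Of the muscle markers, MYOG stood higher in the cells with MEF2C in both libraries, at 0.511 and 0.624 against 0.308 and 0.154, although a similar share of cells had it (24.5% and 19.0% against 24.4% and 23.0%). MYH3 was seen in 16.3% and 23.8% of the cells with MEF2C and in 8.75% and 14.2% of the others, at levels of 0.106 and 0.134 against 0.147 and 0.103. MYOD1 had 0.273 and 0.731 against 0.713 and 0.437, so its libraries went opposite ways. The part of RNA from muscle cells in the MEF2C of cluster 9 was not tested.

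The cells of cluster 12 with MEF2C were then compared with those without, a comparison added after the data were seen. The groups were formed on the thinned counts, with 40 and 55 cells with a MEF2C UMI and 266 and 252 without in the libraries, and all UMIs of the cells were summed per library. Since MEF2C defined the groups, its own difference is not a result. Cells called without MEF2C here had no MEF2C UMI in the thinned counts, but not all lacked it. Over all UMIs their MEF2C level was 0.202 and 0.179 in the libraries, against 1.45 and 1.37 in the cells with MEF2C. The groups had median depths of 20193 and 19097.5 UMIs, and 4.21% and 3.09% of their cells were among those taken as possible doublets. With edgeR 142 of 8903 genes were called (1.59%), MEF2C among them, of which 126 were higher (1.42%) and 16 lower (0.18%). This count rested on the fit: DESeq2 called 88 genes, edgeR with the library as a block 222, and edgeR without the filter on low counts none of 13848, although 926 had an unadjusted p under 0.05.

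Several muscle genes were among those higher in the cells with MEF2C. ACTA1, skeletal alpha-actin, had levels of 44.9 and 34.0 in cells with MEF2C and 15.6 and 13.7 in cells without, a log2 fold change of 1.43 (SE 0.114). MYH3 had 24.5 and 28.2 against 13 and 13.3, a change of 1.01 (SE 0.0795). The edgeR adjusted p was 2.94e-05 for both. MYMK, which drives myoblast fusion, had 4.48 and 4.77 against 2.88 and 2.83 (log2 fold change 0.71). In each of these genes both libraries of the group with MEF2C lay above both of the group without.

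Of the listed targets, 6 of 15 were higher and 0 lower, a count that became 10 with the library as a block and 0 without the filter on low counts. These were MYOM2 (1.79, SE 0.169), CKM (1.58, SE 0.145), LMOD3 (1.23, SE 0.144), XIRP2 (1.22, SE 0.199), MYOM1 (1.16, SE 0.172) and STAC3 (0.58, SE 0.0946), genes of the M-band, thin filament, energy supply and calcium release machinery. In contrast, MYOG stood at 19.8 and 18.9 in cells with MEF2C and at 17.8 and 19.2 in cells without, a log2 fold change of 0.07 (SE 0.0731, edgeR adjusted p = 0.804). DES differed by 0.20 (SE 0.0697) and JUN by 0.03 (SE 0.0803). Neither of the other members was called, with MEF2A at 0.22 (SE 0.0914, edgeR adjusted p = 0.398) and MEF2D at 0.16 (SE 0.159, edgeR adjusted p = 0.8). Over all 5 lists, 7 of 51 genes tested were higher and 0 lower, the seventh being CAMK2D at 0.47 (SE 0.109), a CaM kinase subunit with an edgeR adjusted p of 0.0499.

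Other genes were named by the size of their difference. Among those with a level of at least 1 in the cells with MEF2C, IL17B, TH and PDE2A were higher by 1.38, 1.25 and 1.24. IL17B is a secreted cytokine, TH the tyrosine hydroxylase of catecholamine synthesis and PDE2A a cyclic nucleotide phosphodiesterase. TH turned to -0.35 and was not called (edgeR adjusted p = 0.55) when the groups were formed at 10000 UMIs. CTHRC1, a secreted protein with a collagen-like repeat, was lower, with 0.359 and 0.505 against 1.09 and 1.02, a log2 fold change of -1.25 (SE 0.157). MSTN, the muscle growth inhibitor myostatin, had 0.0231 and 0.0348 against 0.171 and 0.181. The first 2 values come from 864450 and 1149303 UMIs in all and so rest on few molecules. MSTN passed the filter through the cells without MEF2C, so the test could hardly have shown a rise. Its call was lost without that filter (edgeR adjusted p = 0.366).

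**Figure D5:**
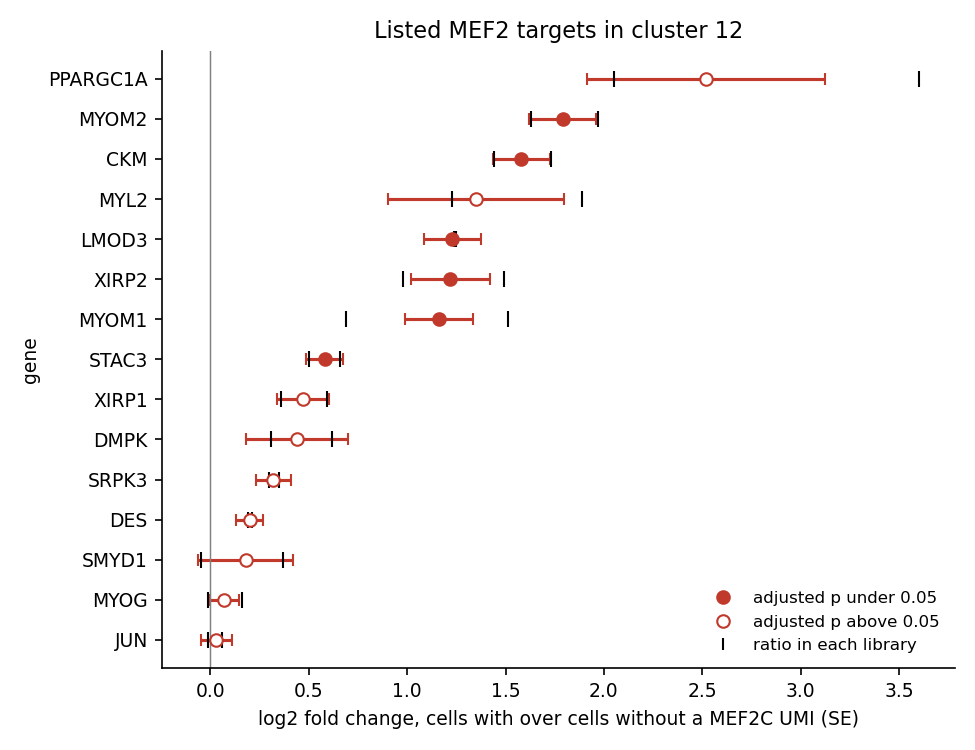
Log2 fold change, with its standard error, of the 15 tested genes listed as MEF2 targets in cluster 12. Cells with a MEF2C UMI in the thinned counts are compared with cells that had none in those counts. Symbols are filled where edgeR's adjusted p was under 0.05, and black ticks give each library. CKM and MYOM2 are higher by 1.58 and 1.79, while MYOG and JUN lie near 0 at 0.07 and 0.03, and the largest value, PPARGC1A at 2.52, was not called.

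The pattern of each member over the 15 clusters was set beside that of the 10062 genes with at least 500 UMIs. Likeness was Pearson's r of log2 levels with a pseudocount of 0.01, over 15 clusters that share their libraries and differ in depth, and it is given as a description. The members resembled each other, with r of 0.882 between MEF2A and MEF2D, 0.741 between MEF2A and MEF2C and 0.658 between MEF2D and MEF2C. The 5 genes most like MEF2A were HIPK3, FAM171A2, LRRN1, INPPL1 and SAMD4A, with r from 0.956 to 0.964. For MEF2D they were DOK7, FNDC5, ZBTB18, RCOR2 and TRAF4 (0.939 to 0.958), of which DOK7 acts at the neuromuscular junction and FNDC5 is a muscle membrane protein. For MEF2C they were SVIL, SLC2A6, GRASP, MYOM1 and ABLIM3 (0.900 to 0.923), of which MYOM1 is an M-band protein and SVIL and ABLIM3 bind actin. These lists changed when other clusters or 1 library were used: over the 11 clusters with deeper cells, 0, 1 and 2 of the 5 genes of MEF2A, MEF2C and MEF2D were still among the first 5.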

How the data were processed

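The authors aligned the reads to the ARS-UCD1.2 bovine genome, counted UMIs and joined both libraries with Cell Ranger 3.0.2. When joining them the authors thinned the reads so that both libraries had equal mapped depth. The deposited counts are the UMIs left, with no further scaling, of 21867 genes in 19096 cells, so their totals are not the depth sequenced. The deposited cluster averages have the unit score here, a mean UMI count scaled by the authors to a common total, given for 16816 genes and 15 clusters; the authors' fold changes and p-values against all other cells were not used. Each cell was placed in its cluster by solving these averages as whole UMI sums, and 0 of 252240 pairs of gene and cluster differed from the sums of the assigned cells. Barcode suffixes 1 and 2 gave each cell's library.

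UMIs were summed per cluster and library. The sums were tested with edgeR 4.0.16 (glmQLFit, TMM, filterByExpr) with Benjamini-Hochberg adjustment, and DESeq2 1.42.0 was an alternative. Both sums of a comparison come from the same library, so libraries pair them: log2 ratios of replicate 1 to 2 correlated at 0.167 to 0.669 over 23 comparisons. On simulated counts, 93.4% to 98.5% of genes changed 3-fold were recovered in the 6 steps, and 3.03% to 5.97% of the genes called were false. The simulated libraries were not paired. MEF2A and MEF2D changed by less than 3-fold in these steps, so the recovery does not cover them. Doublets were not removed from the main values. Scrublet's own threshold marked 1 cell, so the highest scores, 7.32% of cells, were left out in an alternative. In another, cells were reassigned to the cluster profiles without the MEF2 genes, and 88.1% kept their cluster.

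Named genes were the members, the 3 largest rises and 2 largest falls called per list in cluster 12 against 3, the cell type markers, and the 5 genes most like each member; other names were chosen after their values were seen. The members and lists were chosen with earlier results of these data known. Exact binomial intervals are at 95%, a count of 0 was read as at most 3, and both cover counting error only. Gene positions were not used here.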

Additional observations from a re-analysis of the deposited data

How the results depend on the processing

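Each member's log2 fold change was recomputed without TMM factors, with DESeq2's size factors, without the filter on low counts, with DESeq2, with the library as a block, with cells reassigned without the MEF2 genes, without possible doublets, without cells under 2000 UMIs and, with no test, in each library alone. Over the 6 neighbouring comparisons, 102 of 112 tested values kept their direction and side of the threshold, and none of 28 values in 1 library had the opposite sign, with MEF2D in cluster 4 against 5 at -0.00 in replicate 2. With DESeq2, MEF2A in cluster 1 against 8 (0.26), MEF2C in cluster 3 against 1 (2.01), and MEF2A and MEF2D in cluster 5 against 8 (-0.22 and -0.43) were no longer called. Without the filter the latter became -0.21 and -0.42, uncalled. With reassigned cells MEF2D in cluster 5 against 8 was -0.30 and not called, MEF2D in cluster 4 against 5 turned to -0.13, and MEF2A in cluster 2 against 4 became 0.19 and was called. The cause was not tested.

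With the replicate block, MEF2A in cluster 2 against 4 stayed at 0.13 and was called. In cluster 12 cells with against without MEF2C the block gave 222 genes, 11 listed genes and 10 targets higher, DESeq2 gave 88 genes, and without the filter, which adds genes of low counts, there were 0 genes, 0 listed genes and 0 targets. The block changed no other call apart from MEF2A in cluster 8 against all other cells. Against all other cells, 332 of 356 tested values kept direction and side, 7 lost and 12 gained a call, and 5 turned sign, none of which had been called: MEF2A in cluster 1 (-0.01) and 15 (0.08) and MEF2D in cluster 7 (0.49) without TMM factors, and with reassigned cells MEF2D in cluster 2 (0.02) and MEF2C in cluster 15 (-10.46, where the cluster held 1 UMI before reassignment). Of 90 values in 1 library, 4 had the opposite sign, none of a called result: MEF2A in cluster 15 (0.27), MEF2D in cluster 7 (0.08) and MEF2C in clusters 13 (0.38) and 14 (0.04). TH turned to -0.35 with groups formed at 10000 UMIs.

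The share of cluster 12 cells with MEF2C follows the depth: 6.22% at 2000 UMIs, 21.3% at 10000 and 35.2% unthinned. Depth limits MEF2C most, with 13 UMIs or fewer in 12 clusters.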
